A study of Mus musculus with 8 samples.

Results

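The genes Ltb, Madcam1, Inka1, Ppbp and Pde1c were measured by total RNA sequencing in mouse embryonic stem cells grown under primitive endoderm induction. Primitive endoderm is the early lineage that forms the yolk sac. The genes were taken by symbol, 5 of the 21812 symbols measured, because they were among the largest differences between knockout and control libraries in these same data; their knockout against control values are therefore given as a description, without a test. The 8 libraries form 4 groups of 2: Mettl3 cKO, Mettl3 WT, Virma cKO and Virma WT. Mettl3 is the catalytic subunit of the RNA N6-methyladenosine methyltransferase, and Virma is a large subunit that helps to hold that enzyme together. The labels give the genotype as cKO or WT and nothing on strain, Cre, inducing agent, clone or separate cultures, so p-values measure the spread between these libraries, which may be technical, and a group may be 1 clone.

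The 5 genes belong to different pathways. Ltb encodes lymphotoxin beta, a membrane-anchored ligand of the tumour necrosis factor family that assembles with lymphotoxin alpha and binds the receptor Ltbr, which signals to NF-kB through Map3k14 and Relb. Madcam1 encodes the mucosal addressin, an adhesion protein of vessels in gut and lymphoid tissue that holds lymphocytes through integrin alpha4 beta7. Inka1 encodes an inhibitor of the kinase PAK4. Ppbp encodes a CXC chemokine of platelets, whose processed form acts on the neutrophil receptor Cxcr2. Pde1c encodes a phosphodiesterase that hydrolyses cAMP and cGMP and is activated by calcium and calmodulin. Most are known from blood, vessel, muscle or nerve and not from stem cells.

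The deposited values are not read counts. Their 75th percentile was 601.25 in Mettl3 cKO 1 and Virma cKO 1 and 602 in the other libraries, and low values fell on steps, so each column had been scaled and rounded. A read was worth 0.9469 and 1.0389 units in Mettl3 cKO, 2.549 and 2.7595 in Mettl3 WT, 0.6803 and 0.6986 in Virma cKO, and 0.6759 and 0.6891 in Virma WT. The implied depth was 17620000 and 16000000 reads in Mettl3 cKO, 6700000 and 6200000 reads in Mettl3 WT, 22980000 and 22290000 reads in Virma cKO, and 25610000 and 25010000 reads in Virma WT. The Mettl3 WT libraries are thus the shallowest, and the lowest values in the Mettl3 line rest on few reads. Library kits of 2 makers are named without saying which library had which, so kit, depth and line cannot be told apart. Depth also differed between Mettl3 cKO and Mettl3 WT, so depth and knockout label cannot be told apart in that line. Kit and knockout label cannot be told apart in either line. Mettl3 itself stood at 588 and 560 units in Mettl3 cKO and 596 and 588 in Mettl3 WT, and Virma at 1173 and 1214 in Virma cKO and 1564 and 1488 in Virma WT. A level summed over a whole gene cannot reveal the loss of single exons, so these levels do not check the labels. Primitive endoderm markers were present in every library, with sums over 12 genes of 116537 and 116198 in Mettl3 cKO, 184751 and 185065 in Mettl3 WT, 23364 and 23627 in Virma cKO, and 147183 and 147909 in Virma WT.

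Promoter windows of RefSeq, 250 bases before to 50 after the annotated start on GRCm38.p6, are shown for the genes with a single window, since they differ in the motifs they hold. Capitals mark matches to an NF-kB consensus (GGG, any 2 bases, then TTTCC) in Ltb and Madcam1, to TATAAA in Ppbp, and to GGGCGG (GC box) and CCAAT in Inka1, each searched on both strands. The windows lie at chr17:35194257-35194556 (Ltb, plus strand), chr10:79664309-79664608 (Madcam1, plus strand), chr9:107985867-107986166 (Inka1, minus strand) and chr5:90768268-90768567 (Ppbp, plus strand).
Ltb: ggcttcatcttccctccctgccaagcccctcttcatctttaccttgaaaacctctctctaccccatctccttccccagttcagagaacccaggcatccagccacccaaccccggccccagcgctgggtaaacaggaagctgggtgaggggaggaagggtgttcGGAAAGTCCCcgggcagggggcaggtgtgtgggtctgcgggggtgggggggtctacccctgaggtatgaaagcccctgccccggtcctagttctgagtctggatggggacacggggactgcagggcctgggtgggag
Madcam1: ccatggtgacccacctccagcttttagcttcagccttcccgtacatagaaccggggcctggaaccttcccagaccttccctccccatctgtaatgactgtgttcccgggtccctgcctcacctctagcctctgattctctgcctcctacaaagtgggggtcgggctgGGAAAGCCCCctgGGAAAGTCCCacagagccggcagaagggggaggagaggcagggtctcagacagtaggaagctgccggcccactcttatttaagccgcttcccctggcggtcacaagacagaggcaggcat
Inka1: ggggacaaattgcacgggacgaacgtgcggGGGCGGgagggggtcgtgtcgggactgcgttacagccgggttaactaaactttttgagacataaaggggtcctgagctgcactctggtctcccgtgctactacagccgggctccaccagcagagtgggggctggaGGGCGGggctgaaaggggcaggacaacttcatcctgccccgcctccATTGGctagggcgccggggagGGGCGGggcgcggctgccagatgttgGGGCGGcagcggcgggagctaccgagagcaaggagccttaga
Ppbp: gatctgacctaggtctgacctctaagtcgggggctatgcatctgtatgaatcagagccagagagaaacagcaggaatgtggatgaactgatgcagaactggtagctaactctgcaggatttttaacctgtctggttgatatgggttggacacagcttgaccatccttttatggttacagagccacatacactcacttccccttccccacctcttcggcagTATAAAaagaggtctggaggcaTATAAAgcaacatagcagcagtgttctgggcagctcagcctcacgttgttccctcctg

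The NF-kB consensus occurred in 1.62% of 20431 windows, and Ltb and Madcam1 were the 2 genes of the 5 that held it. Both carried the letters GGAAAGTCCC, the reverse complement of GGGACTTTCC, at position −87 in Ltb and −70 in Madcam1, counted from the start, and Madcam1 carried GGAAAGCCCC at −83. GGGACTTTCC itself, on either strand, was in 34 windows (0.166%). Of 29 other genes with it, 24 were tested; 10 were higher and 5 lower in Mettl3 cKO than in Mettl3 WT, with 57.8% of all 14287 tested genes called, and 12 were higher and 6 lower in Virma cKO than in Virma WT, with 61.8% of all genes called (limma, Benjamini-Hochberg). Their median log2 fold changes were 0.18 and 0.07, and 0.00 over all genes in both comparisons. The example Neurl3, a ubiquitin ligase gene chosen after its values were seen, had 45 and 31 units in Mettl3 cKO against 8 and 14 in Mettl3 WT, and 38 and 48 in Virma cKO against 6 and 8 in Virma WT. TATAAA was in 12.4% of windows and, among the 5 genes, in Ppbp alone, at −30 and −8. Inka1 held 4 of the GC boxes found in 47.5% of windows and a CCAAT box, found in 38.0%. Pde1c had 3 annotated windows, of which 1 held CCAAT at −244 and −166 and none held the NF-kB consensus, TATAAA or GGGCGG. Of the other motifs searched, AP-1 (TGANTCA, 7.08% of windows) was in Ppbp and Pde1c, and a STAT motif (TTC, any 3 bases, then GAA, 7.76%) and CAGGTG, the E-box of SNAIL and ZEB (19.8%), were each in Ltb and Pde1c. The CRE (2.28%), CACGTG (8.03%) and TGATAAG (2.11%) were in none of the 5 genes. A match to these letters is a description of the window and not a bound site.

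The genes also differed in structure. Ltb, Madcam1, Inka1 and Ppbp are short, with 1516, 1436, 1156 and 1083 bases of exon in GENCODE M21 on GRCm38, below a median of 4370 bases over 13999 tested genes with an entry, while Pde1c has 20067. Ltb, Madcam1 and Inka1 are rich in G and C, with 61.04, 59.19 and 58.05% against a median of 50.2%, and Ppbp and Pde1c have 42.38 and 42.9%. The 4 letters GGAC, part of the sequence the writer complex prefers, occurred 6.35, 6.96 and 7.8 times per kb of the longest transcript in Ltb, Madcam1 and Inka1, 4.62 in Ppbp and 2.51 in Pde1c, with a median of 4.09. In the Mettl3 comparison all tested genes showed a trend with length, with a median log2 fold change of 0.17 among the shortest 3501 genes and −0.16 among the longest 3500, and of −0.04 and 0.06 in the Virma comparison. Inka1 overlaps Gm20661 on the other strand, which stood at 0 or 1 unit in every library, and whether strand was used in the counting is not stated here.

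Ltb, the lymphotoxin ligand, had 115 and 131 units in Mettl3 cKO and 20 and 17 in Mettl3 WT. In the Virma line it had 176 and 166 units in Virma cKO and 30 and 28 in Virma WT. Both knockout groups lay above both control groups with no overlap; 36.3% of all tested genes were higher without overlap in Mettl3 cKO than in Mettl3 WT, and 41.7% in Virma cKO than in Virma WT. The Mettl3 WT values rest on about 8 and 6 reads. Reads were summed per group and scaled by the units per read of its libraries, which follow the deposited scaling and not the total depth. In these summed reads, Ltb was 6.6 times as high in Mettl3 cKO as in Mettl3 WT (95% interval 3.86 to 12.2 from counting error alone, exact binomial). It was 5.91 times as high in Virma cKO as in Virma WT (4.68 to 7.52). On the log2(value + 3) scale, which understates the change of low genes, the differences were 2.55 ± 0.18 and 2.44 ± 0.18 (SE, 2 libraries per group), rank 8 and rank 10 of 14287 tested genes from the highest. With weights that account for the low depth of Mettl3 WT they were 2.63 ± 0.37 and 2.55 ± 0.18, rank 25 in both.

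Madcam1, the addressin, had 160 and 126 units in Mettl3 cKO and 33 and 19 in Mettl3 WT, where these rest on about 13 and 7 reads. It had 177 in both Virma cKO libraries and 39 in both Virma WT libraries. Here too the knockout groups did not overlap the controls, and the Mettl3 libraries were the more variable, with 143.0 ± 24.0 units in Mettl3 cKO and 26.0 ± 9.9 in Mettl3 WT (SD, n = 2). The ratio of summed reads was 5.42 (3.45 to 9.01) in the Mettl3 line and 4.51 (3.67 to 5.57) in the Virma line, and the log2 fold changes were 2.37 ± 0.20 and 2.10 ± 0.20. With weights that account for depth the log2 fold changes were 2.41 ± 0.34 and 2.16 ± 0.16.

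Inka1, the PAK4 inhibitor, had 401 units in both Mettl3 cKO libraries against 76 and 66 in Mettl3 WT, where these rest on about 30 and 24 reads. It had 365 and 377 units in Virma cKO and 90 and 93 in Virma WT. The 2 knockout groups were close to each other, and so were the 2 control groups. The ratio of summed reads was 5.6 (4.25 to 7.52) in the Mettl3 line and 4.06 (3.55 to 4.66) in the Virma line, with log2 fold changes of 2.45 ± 0.11 and 1.98 ± 0.11. With the weights the log2 fold changes were 2.46 ± 0.21 and 2.02 ± 0.10.

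Pde1c, the phosphodiesterase, had 108 and 103 units in Mettl3 cKO and 41 and 30 in Mettl3 WT, where these rest on about 16 and 11 reads. It had 286 and 303 units in Virma cKO and 45 and 35 in Virma WT. The control groups overlapped, and the Virma cKO libraries stood above those of Mettl3 cKO. The ratio of summed reads was 2.95 (1.97 to 4.58) in the Mettl3 line and 7.31 (6.02 to 8.94) in the Virma line. The log2 fold changes were 1.51 ± 0.18, rank 132 of the tested genes, and 2.80 ± 0.18, rank 2. With the weights they were 1.53 ± 0.30, rank 220, and 2.87 ± 0.15, rank 18.

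Ppbp, the platelet chemokine, had 60 and 64 units in Mettl3 cKO and 8 and 6 in Mettl3 WT, where these rest on about 3 and 2 reads. It had 309 and 316 units in Virma cKO and 101 and 97 in Virma WT. Unlike the other 4 genes, its level in Virma WT exceeded that in Mettl3 cKO. The ratio of summed reads was 9.35 in the Mettl3 line with a wide interval, 3.9 to 29.3, and 3.16 (2.76 to 3.61) in the Virma line. The log2 fold changes were 2.71 ± 0.18, rank 4, and 1.63 ± 0.18, rank 95; with the weights they were 2.99 ± 0.51, rank 11, and 1.65 ± 0.10, rank 172. Set against the Virma WT libraries, Mettl3 cKO stood at −0.65 for Ppbp and at 1.98, 1.79, 2.10 and 1.34 for Ltb, Madcam1, Inka1 and Pde1c.

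**Figure D1:**
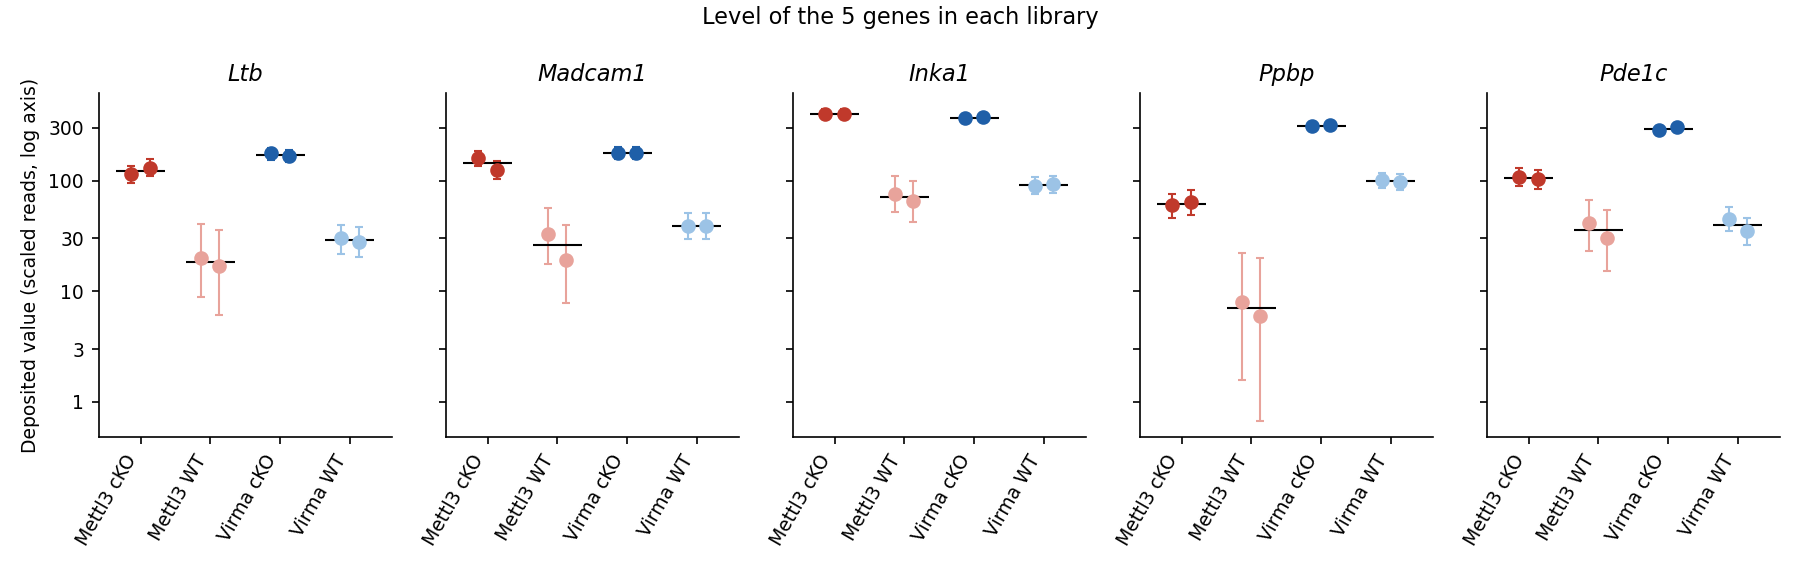
Deposited value (scaled reads, log axis) of each of the 5 genes in each library, with 95% Poisson intervals of the implied reads as bars and group means as black lines. The 4 control values of Ltb lie between 17 and 30 and its 4 knockout values between 115 and 176, whereas Ppbp has 101 and 97 in Virma WT, above the 60 and 64 of Mettl3 cKO.

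All 5 genes were at least 2-fold higher with an adjusted p under 0.05 in both knockout comparisons, as were 255 of the 14287 tested genes (1.78%); since the genes were chosen on these contrasts, nothing follows from their count. All passed the filter of 10 units in at least 2 libraries, which each of them met in Virma WT as well as in both knockout groups. Neither comparison has controls in common with the other.

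**Figure D2:**
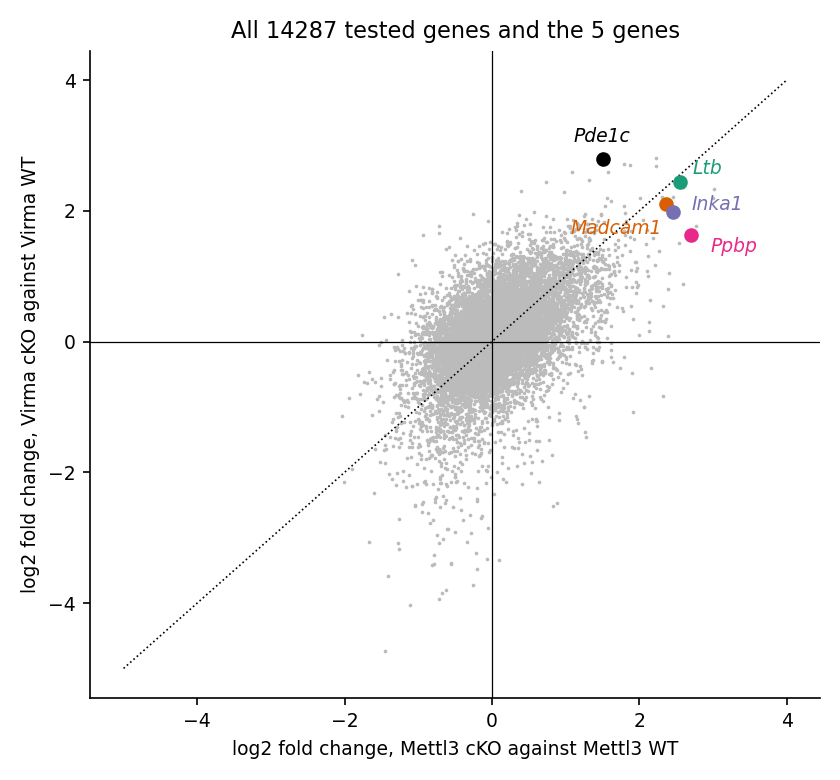
Log2 fold changes of 14287 tested genes (grey) and the 5 genes (coloured) in Mettl3 cKO against Mettl3 WT on the x axis and Virma cKO against Virma WT on the y axis; the dotted line marks equal changes. Ltb (2.55 and 2.44) lies near that line, Ppbp (2.71 and 1.63) to its right and Pde1c (1.51 and 2.80) above it.

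The 2 control groups and the 2 knockout groups were then compared across lines. The choice of the genes did not use these contrasts, although they share libraries with those that it used. A gene chosen for a large rise tends to have low control values or high knockout values in its line. The p-values and ranks below are therefore not independent of the choice. In Virma WT against Mettl3 WT, where 50.6% of all genes were called, Ppbp was higher by a log2 fold change of 3.36 ± 0.18 (limma, Benjamini-Hochberg adjusted p = 2.5e-12), rank 2 of all tested genes. The weights gave 3.66 ± 0.50, rank 5 (limma, adjusted p = 4.18e-09), and in summed reads the ratio was 14.9 (6.33 to 46.3). Ltb (0.58 ± 0.18, adjusted p = 0.0129), Madcam1 (0.58 ± 0.20, adjusted p = 0.0233) and Inka1 (0.36 ± 0.11, adjusted p = 0.0123) passed the unweighted limma test. None of these 3 passed with the weights (limma adjusted p = 0.248, 0.21 and 0.233). Their calls were also lost on leaving out Virma WT replicate 1 (Ltb, 0.53, limma adjusted p = 0.0805), Mettl3 WT replicate 2 (Madcam1, 0.22, adjusted p = 0.285, against 0.93 without replicate 1; Inka1, 0.26, adjusted p = 0.0523), either Virma WT library for Madcam1, or Virma WT replicate 2 for Inka1 (0.33, adjusted p = 0.0705). Pde1c stood at 0.16 ± 0.18 (limma adjusted p = 0.458). Ppbp was therefore the gene of the 5 whose control levels differed in every setting run.

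In Virma cKO against Mettl3 cKO, where 66.1% of all genes were called, Ppbp was higher by 2.28 ± 0.18 (limma adjusted p = 3.04e-10) and Pde1c by 1.45 ± 0.18 (limma adjusted p = 2.6e-07), which became 0.84 (adjusted p = 0.000295) with the trend with length and GC content removed. Ltb was higher by 0.47 ± 0.18 (limma adjusted p = 0.0307), a call lost on leaving out any 1 library of these 2 groups (0.38 to 0.56, limma adjusted p = 0.0548 to 0.185). Ltb passed with the weights (0.49 ± 0.12, limma adjusted p = 0.000238) and stood at 0.83 (adjusted p = 0.000557) with the length and GC trend removed. Madcam1 stood at 0.31 ± 0.20 (limma adjusted p = 0.187) and passed with the weights (0.31 ± 0.12, adjusted p = 0.0147) and without Mettl3 WT replicate 2 (0.31, adjusted p = 0.0456). Inka1 stood at −0.11 ± 0.11 (limma adjusted p = 0.398) and, with the trend with length and GC content removed, at 0.29 (adjusted p = 0.0328).

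By group means from low to high, Ltb, Madcam1 and Pde1c had Mettl3 WT lowest, then Virma WT, then Mettl3 cKO, and Virma cKO highest. For Inka1 the means of the 2 knockout groups changed places, but their difference did not pass (−0.11 ± 0.11, limma adjusted p = 0.398). With the trend with length and GC content removed, that difference had the opposite sign (0.29). For Ppbp the groups in the middle changed places, with Virma WT above Mettl3 cKO. The tests between controls and between knockouts are not independent of the choice of the genes. In them, the 2 control groups were told apart in every setting run for Ppbp alone, whose Mettl3 WT values rest on about 3 and 2 reads. For Pde1c they were told apart in none (limma adjusted p of 0.0621 or more). The 2 knockout groups were told apart in every setting run for Ppbp and Pde1c. For Ltb, Madcam1 and Inka1 the tests between controls and between knockouts passed in some settings and not in others, and the groups in the middle of the order were not tested, since the genes were chosen on knockout against control levels.

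**Figure D3:**
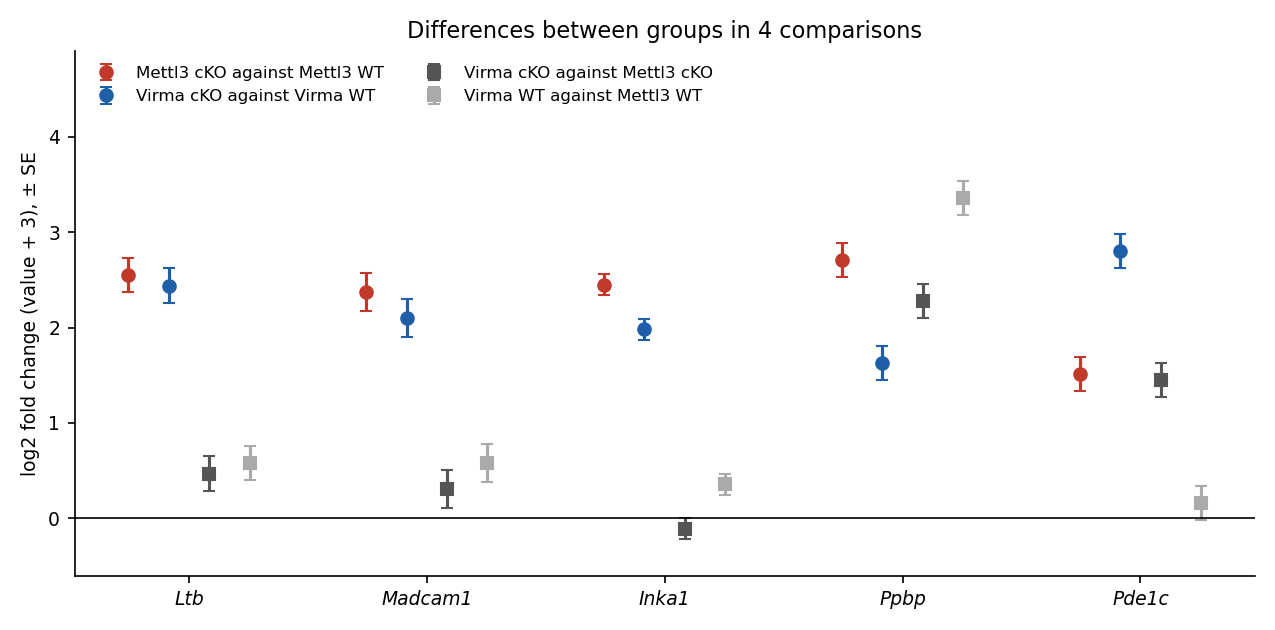
Log2 fold change on the log2(value + 3) scale with its SE for the 5 genes in 4 comparisons: cKO against WT in each line (circles, a description) and Virma against Mettl3 among knockouts and among controls (squares, tested). The tests are not independent of the choice of the genes. Ppbp is the gene with a large difference between controls, 3.36, and Ppbp and Pde1c differ between knockouts by 2.28 and 1.45.

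The pathway genes of each member were tested in both knockout comparisons. The background there was 57.8% of all genes called in the Mettl3 comparison, 28.2% higher and 29.6% lower, and 61.8% in the Virma comparison, 29.8% higher and 31.9% lower. The lists name genes of a pathway and were drawn up with earlier results of these data known; no list as a whole was tested.

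Of 20 genes of the lymphotoxin and NF-kB pathway besides Ltb, 18 were tested. In Mettl3 cKO 11 were higher and 3 lower, with a median log2 fold change of 0.47, and in Virma cKO 13 were higher and 1 lower, with a median of 0.60. Lta, the alpha chain that pairs with lymphotoxin beta, had 23 and 19 units in Mettl3 cKO against 8 and 8 in Mettl3 WT (1.12 ± 0.38, limma adjusted p = 0.0157), and 7 and 7 in Virma cKO against 3 and 3 in Virma WT (0.74 ± 0.38, limma adjusted p = 0.099, and 0.0325 with weights for depth). Tnf, the neighbouring cytokine gene, had 30 and 48 units in Mettl3 cKO against 18 and 8 in Mettl3 WT, and 29 and 27 in Virma cKO against 9 and 14 in Virma WT, and rose in both by 1.43 ± 0.34 and 1.12 ± 0.34. Tnf and Lta stood at 7, 3, 3 and 3 implied reads in the Mettl3 WT libraries. Among the signalling genes, Ltbr, the receptor, rose by 0.59 ± 0.08 and 0.45 ± 0.08. Relb, the transcription factor at the end of this route, rose by 1.01 ± 0.09 and 1.11 ± 0.09, and Birc3, a ubiquitin ligase and known NF-kB target, by 1.12 ± 0.15 and 1.69 ± 0.15. Tnfrsf1a, the main receptor of tumour necrosis factor, rose by 0.59 ± 0.07 and 0.96 ± 0.07. Nfkb2, the partner of Relb and one of the genes with GGGACTTTCC in its window, rose in Virma cKO (0.48 ± 0.06) and had 0.13 ± 0.06 in Mettl3 cKO (limma adjusted p = 0.0834). The kinase genes Chuk (−0.47 ± 0.06) and Ikbkb (−0.21 ± 0.06) and the adaptor Traf2 (−0.31 ± 0.11) fell in Mettl3 cKO, and Traf2 also fell in Virma cKO (−0.39 ± 0.11).

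Of 17 homing and adhesion genes besides Madcam1, 9 were tested and 3 had 0 units in every library. In Mettl3 cKO 4 were higher and 2 lower (median 0.33), and in Virma cKO 5 were higher and 1 lower (median 0.62). Icam1, an integrin ligand of the same immunoglobulin family, had 824 and 833 units in Mettl3 cKO against 349 and 334 in Mettl3 WT, and 1150 and 1242 in Virma cKO against 525 and 563 in Virma WT. It rose by 1.27 ± 0.06 and 1.13 ± 0.06. Vcam1, another ligand of alpha4 integrins, rose by 1.02 ± 0.25 and 1.03 ± 0.25. With the weights its call in the Mettl3 line was lost (limma adjusted p = 0.0701). Cd34 rose by 0.71 ± 0.17 and 1.0 ± 0.17. Of the chains that bind Madcam1, Itga4 was low, with 13 and 15 units in Mettl3 cKO against 13 and 11 in Mettl3 WT, and 35 and 37 in Virma cKO against 17 and 14 in Virma WT, and it rose in Virma cKO (1.08 ± 0.30). Itgb7 rose in Mettl3 cKO (0.42 ± 0.13) and had 0.07 ± 0.13 in Virma cKO. Itgb1, the common beta chain and not part of alpha4 beta7, fell in Mettl3 cKO (−0.18 ± 0.03) and rose in Virma cKO (0.42 ± 0.03). Fut4, a fucosyltransferase gene, fell in both (−0.39 ± 0.13 and −0.46 ± 0.13), though not with the weights in Mettl3 cKO (limma adjusted p = 0.0603).

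Of 14 genes around the PAK kinases besides Inka1, 13 were tested. In Mettl3 cKO 3 were higher and 6 lower (median 0.04), and in Virma cKO 2 were higher and 6 lower (median −0.10). Inka2, the paralog of Inka1, had 63 and 57 units in Mettl3 cKO against 54 and 63 in Mettl3 WT, and 129 and 133 in Virma cKO against 131 and 124 in Virma WT. Its log2 fold changes were 0.04 ± 0.16 in both lines and did not pass (limma adjusted p = 0.856 and 0.843). Pak4, the kinase that Inka1 inhibits, rose by 0.11 ± 0.04 in Mettl3 cKO, a call lost with the weights for depth (limma adjusted p = 0.0539), and fell in Virma cKO (−0.24 ± 0.04). Pak6 had 0.43 ± 0.20 in Mettl3 cKO (limma adjusted p = 0.0734) and rose in Virma cKO (0.73 ± 0.20), while Pak5 stayed between 1 and 10 units and was not tested. Cdc42, the GTPase that activates PAK kinases, fell in both lines (−0.34 ± 0.03 and −0.40 ± 0.03), and Git1, which carries PAK to adhesions, rose in both (0.42 ± 0.04 and 0.25 ± 0.04). Limk1, a kinase downstream of PAK, rose in Mettl3 cKO (0.28 ± 0.07). Pak2 fell in Mettl3 cKO (−0.34 ± 0.04), and Cfl1, the actin severing protein at the end of this route, and Pak1 fell in Virma cKO (−0.45 ± 0.02 and −0.46 ± 0.05).

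Of 19 CXC chemokine and receptor genes besides Ppbp, 18 were in the table and 8 were tested, since most were at or near 0. In Mettl3 cKO 3 were higher and 1 lower (median 0.40), and in Virma cKO 5 were higher and none lower (median 0.74). Cxcl1, a neutrophil chemokine, had 20 and 31 units in Mettl3 cKO against 10 and 11 in Mettl3 WT, and 64 and 61 in Virma cKO against 35 and 35 in Virma WT. It rose in both (1.05 ± 0.26 and 0.79 ± 0.26); with the weights the call in the Mettl3 line was lost (limma adjusted p = 0.0567). Cxcl10 was listed at 0 in both Mettl3 WT libraries and at 7 and 8 units in Mettl3 cKO, and had 27 and 26 units in Virma cKO against 7 and 6 in Virma WT (1.64 ± 0.40). Cxcl5, the gene next to Ppbp, had 23 and 16 units in Mettl3 cKO against 20 and 14 in Mettl3 WT, and 81 and 91 in Virma cKO against 37 and 40 in Virma WT, and rose in Virma cKO (1.10 ± 0.25). Cxcl16, a membrane-bound chemokine, rose in both (0.48 ± 0.08 and 1.09 ± 0.08), and the scavenger receptor Ackr3 fell in Mettl3 cKO (−0.57 ± 0.12). Cxcr2, the receptor of the Ppbp product, was listed at 0 in 7 libraries and at 1 unit in Virma WT 1.

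Of 20 phosphodiesterase and calmodulin genes besides Pde1c, 19 were tested. In Mettl3 cKO 4 were higher and 4 lower (median 0.10), 5 in all without Mettl3 cKO replicate 1, and in Virma cKO 9 were higher and 6 lower (median 0.27). The paralogs Pde1a and Pde1b both rose in Virma cKO, Pde1a with 15 and 10 units against 3 and 2 in Virma WT (1.48 ± 0.46) and Pde1b with 113 and 101 units against 47 and 50 in Virma WT (1.09 ± 0.18). In Mettl3 cKO neither passed (0.21 ± 0.46 and 0.17 ± 0.18; limma adjusted p = 0.72 and 0.463). The cAMP phosphodiesterase gene Pde4b rose in both lines (0.74 ± 0.16 and 1.28 ± 0.16), as did the cGMP phosphodiesterase gene Pde5a (0.41 ± 0.13 and 1.06 ± 0.13). Pde3a (−1.18 ± 0.26 and −0.99 ± 0.26), Pde4d (−0.64 ± 0.09 and −0.37 ± 0.09) and Pde8a (−0.60 ± 0.08 and −0.22 ± 0.08) fell in both. The calmodulin gene Calm2 fell in both lines (−0.28 ± 0.03 and −0.41 ± 0.03), and Calm3 fell in Virma cKO (−0.45 ± 0.03).

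**Figure D4:**
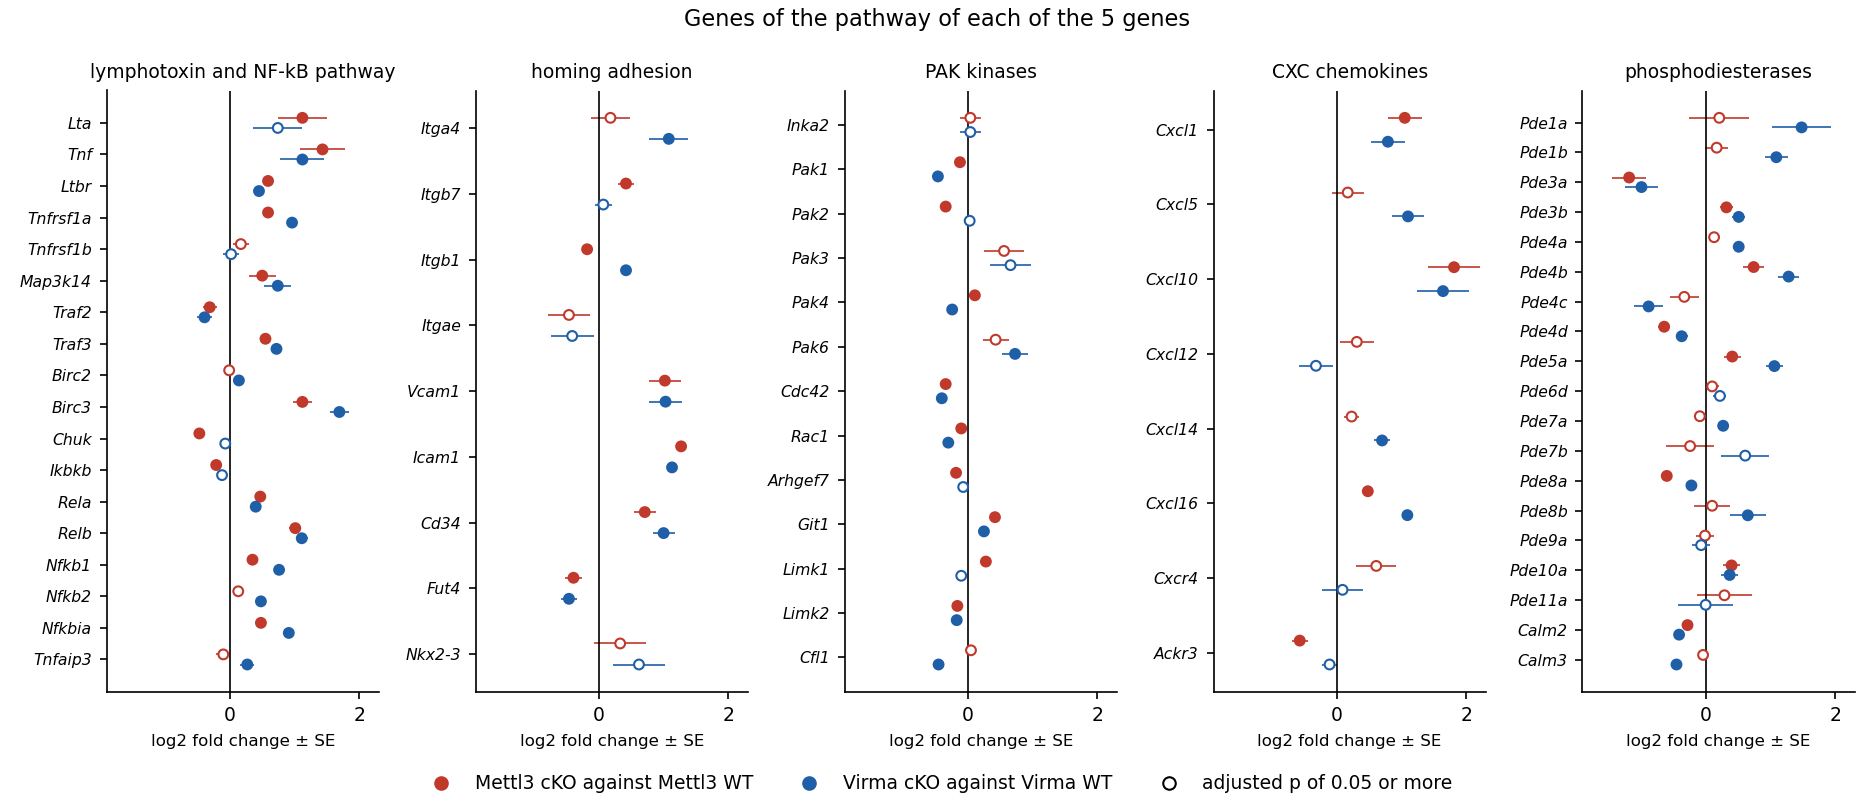
Log2 fold change with SE of the tested genes of 5 lists, 1 per member, in Mettl3 cKO against Mettl3 WT (red) and Virma cKO against Virma WT (blue); open circles did not pass the limma test, and Cxcl10 in the Mettl3 line is fitted against values of 0. In the lymphotoxin and NF-kB list 11 genes were higher and 3 lower in Mettl3 cKO and 13 higher and 1 lower in Virma cKO, whereas in the PAK list 3 were higher and 6 lower and then 2 higher and 6 lower.

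The 3 nearest protein-coding genes on either side of each member, 30 in all with 20 tested, went in both directions. In Mettl3 cKO 7 were higher and 3 lower, and in Virma cKO 9 were higher and 6 lower. Over all tested genes, 57.8% were called in the Mettl3 comparison and 61.8% in the Virma comparison. Beside Ltb on chromosome 17, Nfkbil1, an inhibitor-like gene of the same cluster, rose in both lines (0.77 ± 0.09 and 0.84 ± 0.09) together with Tnf, and Prrc2a fell in Virma cKO (−0.27 ± 0.03). Beside Madcam1 on chromosome 10, Tpgs1, a tubulin polyglutamylase subunit whose gene lies 0.9 kb away, had 801 and 790 units in Mettl3 cKO against 263 and 243 in Mettl3 WT, and 886 and 901 in Virma cKO against 364 and 415 in Virma WT. It rose by 1.64 ± 0.07 and 1.19 ± 0.07, and the next gene, Cdc34, by 0.83 ± 0.03 and 0.28 ± 0.03, while Shc2 on the other side fell in Virma cKO (−0.78 ± 0.15). Beside Inka1 on chromosome 9, Cdhr4 was higher in Mettl3 cKO (1.20 ± 0.45), and Uba7 (0.96 ± 0.37) and Traip (0.44 ± 0.08) in Virma cKO. The Mettl3 WT values of Cdhr4 rest on about 1 and 3 reads. Ip6k1 fell in both lines (−0.27 ± 0.07 and −0.24 ± 0.07) and Gmppb in Virma cKO (−0.51 ± 0.08). Beside Ppbp on chromosome 5, Rassf6 (0.81 ± 0.27) and Cxcl5 were higher in Virma cKO, and the platelet chemokine gene Pf4, 2.4 kb away, stayed between 0 and 5 units. Beside Pde1c on chromosome 6, Kbtbd2 rose in both lines (0.28 ± 0.06 and 0.80 ± 0.06), and Lsm5 (−0.21 ± 0.07 and −0.66 ± 0.07) and Avl9 (−0.74 ± 0.07 and −0.33 ± 0.07) fell in both.

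Over the 8 libraries the profiles of Ltb, Madcam1 and Inka1 were close to one another, with Pearson correlations of log2(value + 8) of 0.987 (Ltb and Madcam1), 0.983 (Ltb and Inka1) and 0.981 (Madcam1 and Inka1). Pde1c had 0.941, 0.926 and 0.876 with these 3, and Ppbp had 0.748, 0.737 and 0.648. The 8 points fall into 4 groups and share their line and depth, so the coefficients are descriptions. Among 13050 other genes whose mean passed a minimum, those most like each gene had coefficients from 0.9937 to 0.9983. They were Rpl10l, Entr1 and Dhx32 for Ltb, Cdca5, Slc9b1 and Il18bp for Madcam1, Tmem11, Reep6 and Ubox5 for Inka1, Cachd1, Myl9 and Ccnd1 for Ppbp, and Dusp16, Pask and Rin1 for Pde1c. Rpl10l, the leading match of Ltb, had 1010 and 1090 units in Mettl3 cKO against 296 and 292 in Mettl3 WT, and 1378 and 1312 in Virma cKO against 358 and 384 in Virma WT. It is a retrocopy of Rpl10, and reads of the near-identical copies may be shared. Myl9, a smooth muscle myosin light chain and a match of Ppbp, had 83 and 82 units in Mettl3 cKO against 20 and 14 in Mettl3 WT, and 307 and 268 in Virma cKO against 110 and 119 in Virma WT.

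Markers of cell types known for these genes were read in the same libraries. As background, 57.8% of all tested genes were called in the Mettl3 comparison and 61.8% in the Virma comparison. In bulk RNA, fewer cells of a type and less RNA per cell cannot be told apart. Several markers of blood cells were at or near 0: Ptprc stood at 0 or 1 unit in every library, Ms4a1 of B cells and Gp9, Gp6, Gp1bb and Treml1 of platelets were at 0 in all 8. The summed level of 9 lymphocyte markers was 172 and 159 units in Mettl3 cKO against 115 and 130 in Mettl3 WT, and 107 and 95 in Virma cKO against 102 and 105 in Virma WT. Of the 4 tested lymphocyte markers, Cd79b, a chain of the B cell receptor, had 87 and 71 units in Mettl3 cKO against 25 and 63 in Mettl3 WT, and 51 and 55 in Virma cKO against 32 and 28 in Virma WT, and rose in both (0.92 ± 0.28 and 0.76 ± 0.28). Its partner Cd79a rose in Mettl3 cKO (0.56 ± 0.23), a call lost with the weights (limma adjusted p = 0.161), and the T cell marker Cd3e fell in Virma cKO (−1.37 ± 0.35). The summed level of 10 megakaryocyte and platelet markers was 248 and 214 units in Mettl3 cKO against 237 and 257 in Mettl3 WT, and 146 and 166 in Virma cKO against 142 and 148 in Virma WT. Most of it came from the integrin genes Itga2b, at 68 to 180 units and called in neither line, and Itgb3, which fell in Mettl3 cKO (−0.87 ± 0.18). Of 8 myeloid markers, 4 of them tested, which summed to 2584 and 2495 units in Mettl3 cKO against 2336 and 2248 in Mettl3 WT, and 2339 and 2244 in Virma cKO against 1731 and 1760 in Virma WT, Laptm5 was the 1 that rose in each line. Of 10 endothelial markers, 9 were tested; 5 were higher and 1 lower in Mettl3 cKO, with sums of 3643 and 3655 against 3153 and 3145 in Mettl3 WT, and 2 were higher and 5 lower in Virma cKO, with sums of 2433 and 2316 against 2648 and 2733 in Virma WT.

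Fibroblast markers, as a sum, kept the group order of Ppbp. Over all tested genes, 28.2% were called higher and 29.6% lower in Mettl3 cKO, and 29.8% and 31.9% in Virma cKO. In Virma WT against Mettl3 WT, 50.6% were called in either direction. Of 13 markers, 12 were higher in Mettl3 cKO than in Mettl3 WT and all 13 in Virma cKO than in Virma WT. With the weights the call of Lum in Mettl3 cKO was lost (limma adjusted p = 0.194). All 13 were also higher in Virma WT than in Mettl3 WT. None of the markers was lower in these comparisons and none was at 0. Their summed level was 5568 and 5608 units in Mettl3 cKO, 2703 and 2730 in Mettl3 WT, 18040 and 17645 in Virma cKO, and 7620 and 7723 in Virma WT. Col1a1, the collagen that led the sum, had 2190 and 2105 units in Mettl3 cKO against 953 and 1032 in Mettl3 WT, and 6975 and 6695 in Virma cKO against 2848 and 2823 in Virma WT. The group order of the summed level was that of Ppbp. Over the 8 libraries, the correlation of its log2 values with those of Ppbp was 0.988. The correlation was 0.807 for Pde1c, 0.729 for Ltb, 0.71 for Madcam1 and 0.612 for Inka1. It was −0.888 for the summed primitive endoderm markers. The 8 points fall into 4 groups, so these coefficients are descriptions. The fibroblast sum was 2.82 times as high in Virma WT as in Mettl3 WT, whereas the mean of Ppbp was 14.1 times and those of Ltb, Madcam1, Inka1 and Pde1c 1.57, 1.5, 1.29 and 1.13 times as high. In Mettl3 cKO against Mettl3 WT this sum was 2.06 times and the mean of Ppbp 8.86 times as high. In Virma cKO against Virma WT they were 2.33 and 3.16 times as high. Summed primitive endoderm markers were lower in the knockouts, at 0.629 times Mettl3 WT in Mettl3 cKO and 0.159 times Virma WT in Virma cKO; Gata6, a regulator of that lineage, fell in both (log2 fold changes of −0.72 and −3.08). Of 10 pluripotency markers, 4 were higher and 5 lower in Mettl3 cKO, with sums of 33681 and 34305 units against 35699 and 35926 in Mettl3 WT. In Virma cKO 1 was higher and 8 were lower, with sums of 23116 and 23085 against 35950 and 36587 in Virma WT. The part of these markers in the levels of the 5 genes was not tested.

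**Figure D5:**
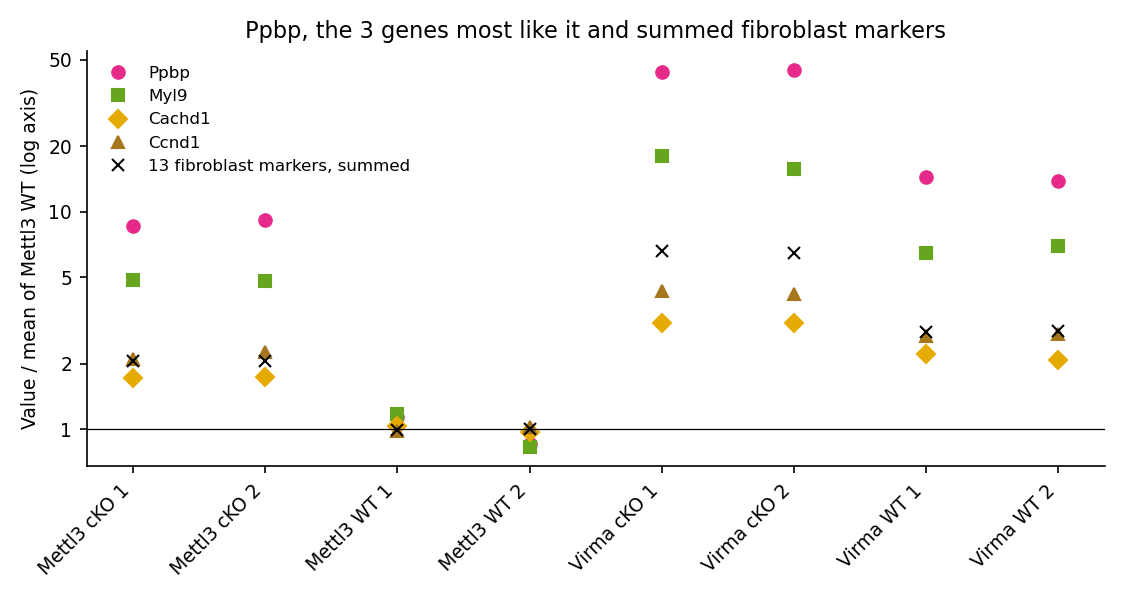
Value in each library divided by the mean of the 2 Mettl3 WT libraries (log axis) for Ppbp, its most alike genes Myl9, Cachd1 and Ccnd1, and the sum of 13 fibroblast markers. All 5 series keep the same order of groups, with Mettl3 WT lowest and Virma cKO highest. Myl9, Cachd1 and Ccnd1 were picked for their likeness to Ppbp. Relative to Mettl3 WT, Ppbp spans the widest range, from 6 to 316 units, and its Mettl3 WT values rest on about 3 and 2 reads.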

How the data were processed

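Total RNA was extracted with TRIzol and sequenced on an Illumina NovaSeq, per the labels' protocols. The submitters' processing notes list STAR 2.7.11b, Subread, DESeq2, Trim Galore, FastQC 0.12.1 and the build mm39, with no role, order or strand setting. The authors deposited 1 table of 21812 symbols in 8 columns, named as raw. The signal values in it were scaled and rounded by the authors before they were deposited, as the values show: the 75th percentile is nearly the same in every column and low values fall on steps, whose size gave the units per read. The count model planned for this table was therefore not used. limma 3.58.1 in R 4.3.3 was fitted to log2(value + 3), with a trended and robust spread shared by the 4 groups, over 14287 genes with at least 10 units in 2 libraries, and p-values were adjusted by Benjamini-Hochberg over all of them at a threshold of 0.05. Ratios of implied reads carry exact 95% intervals that cover counting error only. The pairs of libraries differed by more than sampling noise, with a chi-square per degree of freedom of 1.63, 1.08, 1.33 and 1.91 in Mettl3 cKO, Mettl3 WT, Virma cKO and Virma WT, so no pair was merged; this does not show that they came from separate cultures. The 5 genes, the gene lists, the markers and the alternatives were chosen with earlier results of these data known. Named pathway genes are up to 4 called genes of largest change per list and comparison, and the direct partners of the 5 genes. Chuk, Ikbkb, Traf2, Fut4, Neurl3, Csf1, Col1a1, Gata6 and the blood cell markers given with values were chosen after their values were seen. Reference sequences and lengths come from RefSeq and GENCODE on GRCm38, not mm39, and were matched by symbol. Some list genes are not reported here. The code was tested on simulated data.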

Additional observations from a re-analysis of the deposited data

Results flagged for a closer look

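The effect of the knockout label differed between the Virma and the Mettl3 line for 37 of 66 genes named above other than the 5 genes and those picked for their likeness (limma, test of the difference of the 2 effects, Benjamini-Hochberg), against 46.9% of all 14287 tested genes. Many of these genes were named for a large change in 1 of the 2 lines or after their values were seen. That choice favours a difference between the lines, so the count and these tests are descriptions. Values are the log2 effect in the Virma line minus that in the Mettl3 line. It was above 0 for Birc3 (0.57), Tnfrsf1a (0.37), Nfkb2 (0.35), Chuk (0.40), Itgb1 (0.59), Pak2 (0.37), Cxcl5 (0.93), Cxcl16 (0.61), Ackr3 (0.46), Pde8a (0.38), Pde1b (0.93), Pde5a (0.65), Traip (0.34), Rassf6 (1.31), Avl9 (0.41), Kbtbd2 (0.52), Col1a1 (0.16), Csf1 (0.51), Laptm5 (0.27) and Itgb3 (0.84). It was below 0 for Mettl3 (−0.39), Virma (−0.43), Git1 (−0.17), Pak1 (−0.34), Cfl1 (−0.50), Pak4 (−0.36), Calm2 (−0.13), Calm3 (−0.42), Tpgs1 (−0.45), Cdc34 (−0.55), Lsm5 (−0.45), Gata6 (−2.36), Limk1 (−0.39), Gmppb (−0.66), Shc2 (−0.87), Prrc2a (−0.24) and Cd79a (−0.92). Itgb1 and Pak4 passed the test with opposite signs in the 2 lines. For the 5 genes themselves, whose choice rested on both effects, no test of this difference is given.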

How the results depend on the processing

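Of 760 values recomputed under an alternative, 709 stayed within the limit set for their kind (direction, side of the threshold or size), 28 changed in size, 18 lost a call, 3 gained one and 2 changed direction. The 5 genes kept a positive log2 fold change in both knockout comparisons under every alternative fitted, except Ppbp, which stood at −0.65 in Mettl3 cKO with the Virma WT libraries as control. With the length and GC trend removed, the Mettl3 comparison gave 2.14 for Ltb, 2.01 for Madcam1 and 2.12 for Inka1 (2.55, 2.37 and 2.45 with it). Ppbp then stood at 2.72 and Pde1c at 1.88 (2.71 and 1.51 with it). With both Virma pairs as 1 sample each, 5852 genes were called in Virma cKO against Virma WT (8824 with separate libraries), 4731 in Virma WT against Mettl3 WT (7229) and 29 genes of the 5 lists in the Virma comparison (48). In that fit Ltb, Madcam1 and Inka1 stood at 0.58, 0.58 and 0.36 between controls (limma adjusted p = 0.137, 0.149 and 0.121) and Ltb at 0.47 between knockouts (adjusted p = 0.186; 0.136 with the Virma cKO pair alone as 1 sample); fewer samples enter it. Weights from implied reads, chosen after seeing the data, gave 0.57, 0.56 and 0.34 between controls and 0.31 for Madcam1 between knockouts. Removing the length and GC trend gave 0.83 for Ltb, 0.84 for Pde1c, 0.68 for Madcam1 (adjusted p = 0.00754) and 0.29 for Inka1 (adjusted p = 0.0328) between knockouts; the cause was not tested. Leaving out 1 library gave 0.48 to 0.68 for Ltb, 0.22 to 0.93 for Madcam1 and 0.26 to 0.45 for Inka1 between controls, and 0.38 to 0.56 for Ltb and 0.14 to 0.48 for Madcam1 between knockouts. With a pseudocount of 33, 8 of the 15 most alike genes were the same. Replicate numbers did not pair the libraries (correlation of deviations 0.0142 in the Mettl3 line and −0.00835 in the Virma line), and a replicate block gave 8360 called genes in the Mettl3 comparison against 8253 without it. The Wald test listed as an alternative was not run, because the values are scaled. Depth limits the Mettl3 WT levels, which rest on 2 to 30 implied reads for the 5 genes.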
